A study of Macaca mulatta with 12 samples.

Results

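Serotonin 1F receptor (HTR1F) excitatory neurons of the macaque amygdala were chosen by their counts: nuclei with at least 2 unique molecular identifiers (UMIs, each marking 1 captured transcript) of the neuronal gene RBFOX3, at most 1 UMI of the inhibitory genes GAD1 and GAD2 together, no UMI of PROX1, and at least 5 UMIs of HTR1F. Of 26400 nuclei, 75 met this rule, which was 0.284% (95% exact binomial interval 0.224 to 0.356%). They were 0.649% (0.511 to 0.813%) of the 11556 nuclei that met the RBFOX3 and GAD limits. The comparison nuclei were the 10299 nuclei with the same RBFOX3 and GAD limits and no UMI of HTR1F, of which 6785 also had no UMI of PROX1.

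The study profiled nuclei from frozen amygdala, an almond-shaped region of the temporal lobe, of rhesus macaques by droplet-based single-nucleus RNA sequencing. Its 12 labelled samples form 1 group with no treatment, genotype or condition to compare, and the labels give neither age nor sex. The deposited barcodes fall into 3 sets that no label ties to the samples, so all nuclei were treated as 1 pool, that is as 1 sample. With 1 sample there is no test here, and no p-value, standard error or count of significant genes is given.

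HTR1F encodes a serotonin receptor that couples to inhibitory G proteins and lowers cyclic AMP, and it is known as the target of a class of migraine drugs. KCNH5 encodes a voltage-gated potassium channel of the ether-à-go-go family, which shapes the firing of neurons. ESR1 encodes estrogen receptor alpha, a hormone-activated transcription factor that marks particular groups of neurons in the amygdala and hypothalamus.

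The rule itself set the HTR1F level, which is given as a description. The 75 nuclei held 911 HTR1F UMIs, from 5 to 43 a nucleus with a median of 11, and their level was 1314 CPM (UMIs of the gene per 1000000 UMIs of the group; 95% exact Poisson interval 1230 to 1402). Barcode sets 1, 2 and 3 held 24, 24 and 27 of these nuclei, or 0.261, 0.270 and 0.325% of their nuclei. The intervals of these shares overlapped. Median depth was 8745 UMIs in the HTR1F neurons (range 2633 to 16320) and 8082 in the comparison nuclei. All intervals cover counting error only, since nuclei of 1 pool are not replicates.

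HTR1F at 5 or more UMIs was found in 214 nuclei in all, so the rule took a part of them. Another 7 met the RBFOX3 and GAD limits but held PROX1, 40 had RBFOX3 with more than 1 UMI of GAD1 and GAD2, and 92 had fewer than 2 UMIs of RBFOX3. Of these 92, 40 also had more than 1 UMI of GAD1 and GAD2. At least 1 UMI of HTR1F was seen far more widely, in 10.9% of nuclei within the RBFOX3, GAD and PROX1 limits (median depth 9674 UMIs in those without HTR1F) and in 0.882% of astrocyte-like nuclei. Those astrocyte-like nuclei, defined after the data were seen by no UMI of RBFOX3, GAD1 or GAD2 and at least 3 of SLC1A3, had a median of 1905 UMIs and serve here as a class that should lack neuronal transcripts. No barcode sequence of an HTR1F neuron occurred in more than 1 set, while 136 of all nuclei carried such a shared sequence. A doublet caller, Scrublet, marked 5 of the 75 nuclei (6.67%) and 8.52% of the comparison nuclei as presumed doublets.

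Most of the HTR1F neurons formed a compact group by genes that the rule did not use. When the 11556 nuclei within the RBFOX3 and GAD limits were clustered without HTR1F, RBFOX3, GAD1, GAD2 and PROX1, 59 of the 75 nuclei (78.7%, interval 67.7 to 87.3%) fell into 1 of 18 clusters, called the main cluster below. By set these were 18 of 24, 20 of 24 and 21 of 27. The main cluster held 75 nuclei, and of its 16 nuclei outside the rule 15 had 1 to 4 UMIs of HTR1F and 1 had none, at a median depth of 5168 UMIs. HTR1F reached 1341 CPM in that cluster and 67.2 CPM in the next highest. A finer resolution, and a clustering from which KCNH5 and ESR1 were also withheld, each gave a cluster with 59 of the 75 nuclei, and a clustering without presumed doublets gave 57 of 70.

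The remaining 16 HTR1F neurons were spread over 5 other clusters, with 5, 5, 3, 2 and 1 of them. They held fewer HTR1F UMIs, with a median of 5.5 against 12 in the main cluster, at a median depth of 10504.5 against 8735 UMIs. Presumed doublets were 3 of these 16 and 2 of the 59. As clusters were built from the genes described here, differences between the 59 and the 16 are a description.

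KCNH5 set the 59 apart from the 16. Each of the 59 had a KCNH5 UMI, with a median of 6 and a range of 1 to 22, whereas 4 of the 16 did, with at most 2. The transcription factor TSHZ2 (teashirt zinc finger 2) had a median of 26 UMIs in the 59, from 5 to 76, and a median of 0 in the 16, from 0 to 12. For the receptor tyrosine phosphatase PTPRT the medians were 14 and 0, with ranges of 2 to 54 and 0 to 3. The cell-surface proteoglycan GPC6 had medians of 26 and 1, with ranges of 4 to 63 and 0 to 16. All 5 of KCNH5, TSHZ2, PTPRT, GPC6 and TOX were seen together in 58 of the 59 nuclei and in 0 of the 16, of which 14 had at most 2 of the 5. ESR1 was less complete, with a UMI in 34 of the 59 and in 6 of the 16.

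**Figure D1:**
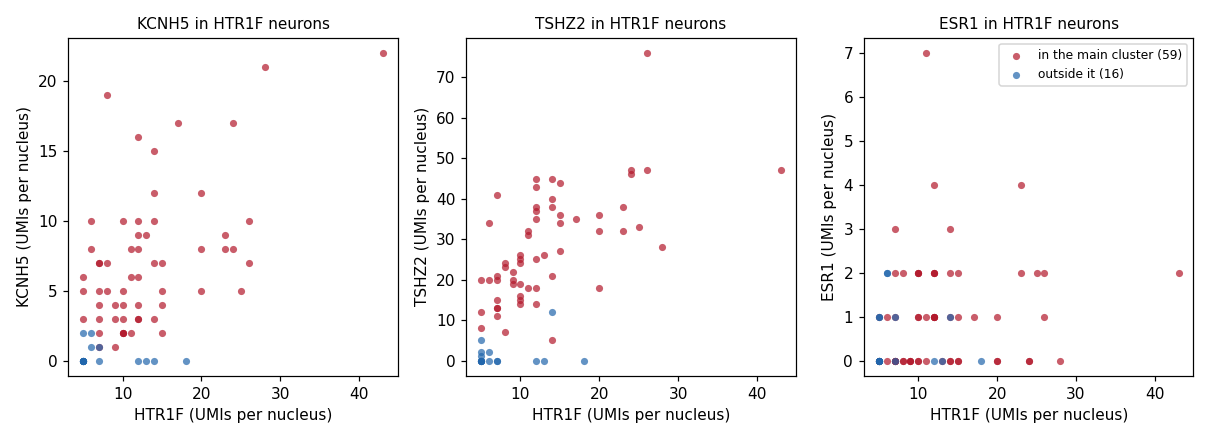
UMIs of KCNH5, TSHZ2 and ESR1 (vertical axes, linear) against UMIs of HTR1F (horizontal axes, linear) in each of the 75 HTR1F neurons; red points are the 59 nuclei in the main cluster, blue points the 16 outside it, and darker points are overlapping nuclei. The red points hold 1 to 22 UMIs of KCNH5 and 5 to 76 of TSHZ2, the blue points at most 2 and 12, while ESR1 is at 0 in nuclei of both colours.

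Many genes that differed between the HTR1F neurons and the comparison nuclei were nearer the comparison level in the 16 nuclei outside the main cluster. Of the 108 genes named by rule, 57 were higher and 51 lower in the HTR1F neurons, and the 16 nuclei were within 2-fold of the comparison nuclei for 37 of the higher and 33 of the lower ones. In the 59 nuclei of the main cluster 0 and 1 were. This was largely fixed by the choice of genes over all 75 nuclei, as the 59 hold 529776 of their 693151 UMIs. Of the 57 higher genes, 11 were at least 2-fold higher in the 16 nuclei and 9 at least 2-fold lower. Of the 51 lower genes, 18 were at least 2-fold lower in the 16. The mineralocorticoid receptor NR3C2 was at 1426 CPM in the 16, 145 in the 59 and 1196 in the comparison nuclei. The guidance receptor ROBO1 was at 3593, 257 and 3144 CPM in the same order, and the transcription factor ZBTB20 at 1004, 94.4 and 1163. Genes known from interneurons, chosen after their values were seen, went both ways. ERBB4, the neuregulin receptor, was at 1585 CPM in the 16, 117 in the 59 and 328 in the comparison nuclei, beside 7491 in nuclei with more than 1 UMI of GAD1 and GAD2 and none of HTR1F (called GAD-high) and 2457 in astrocyte-like nuclei. ADARB2, an RNA-binding protein, was at 1402, 347 and 610 CPM and 5666 in GAD-high nuclei, but the share of nuclei with an ADARB2 UMI was 62.5% in the 16, 69.5% in the 59 and 76.0% in the comparison nuclei. NXPH1, a neurexin ligand, was at 55.1, 18.9 and 44.7 CPM beside 1502 in GAD-high nuclei. The 16 nuclei had no UMI of the vesicular GABA transporter SLC32A1 and 1 of the interneuron factor LHX6. The part that the 16 nuclei have in the values over all 75 was not tested.

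Along the HTR1F count, KCNH5 was lower in all 4 classes with 0 to 3 UMIs than in the 4 classes above them. Among nuclei with the same RBFOX3, GAD and PROX1 limits, KCNH5 was at 39.3, 38.0, 44.1 and 29.6 CPM in nuclei with 0, 1, 2 and 3 UMIs of HTR1F. It was at 250 CPM in the 15 nuclei with 4 UMIs, just outside the threshold, and at 262 CPM in the 15 with 5 to 6, just inside it. It was at 638 CPM in the 15 with 7 to 9 and at 735 CPM in the 45 with 10 or more. ESR1 was at 25.5, 25.4, 27.3, 37.7, 31.2, 56.6, 83.3 and 124 CPM over the same 8 classes. The main cluster held 8 of 15 nuclei at 4 UMIs, 5 of 15 at 5 to 6, 13 of 15 at 7 to 9 and 41 of 45 at 10 or more. Both classes next to the threshold thus held nuclei in and out of the main cluster, and most nuclei with 7 or more UMIs lay in it. SLC17A7, the vesicular glutamate transporter of cortical neurons, was at 117 CPM at 4 UMIs, 163 at 5 to 6, 120 at 7 to 9 and 72.1 at 10 or more.

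**Figure D2:**
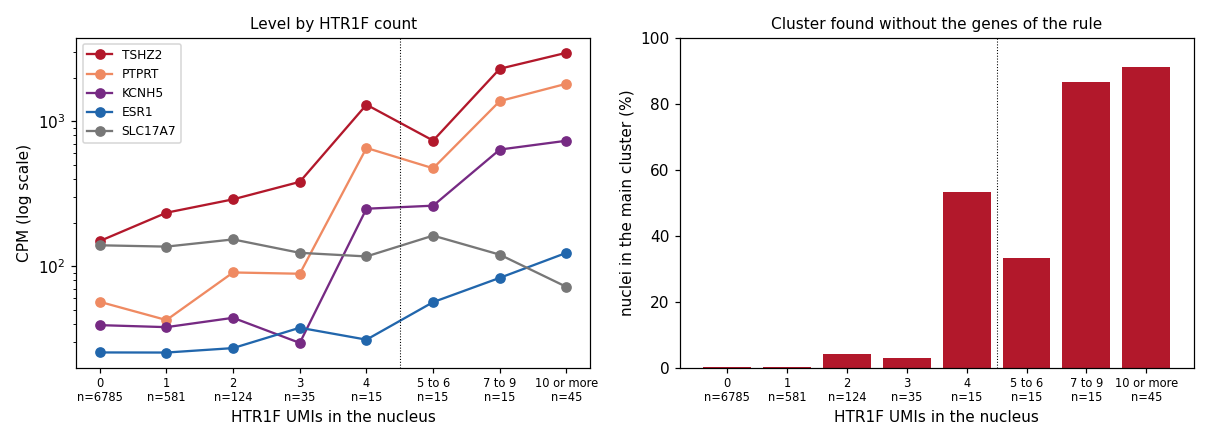
Left, CPM of 5 genes (vertical axis, log scale) by the number of HTR1F UMIs in the nucleus (horizontal axis, classes with their number of nuclei), and right, the share of each class in the main cluster (vertical axis, percent); all nuclei have RBFOX3 at 2 or more, GAD1 and GAD2 at most 1 and PROX1 at 0, and the dotted line marks the threshold of 5 UMIs. From 3 to 4 UMIs KCNH5 goes from 29.6 to 250 CPM and PTPRT from 88.9 to 655, while TSHZ2 goes from 149 at 0 to 382 at 3 and 1302 at 4, and 91.1% of the nuclei with 10 or more UMIs lie in the main cluster.

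The excitatory label was checked against glutamatergic and inhibitory genes. SLC17A7 was at 98.1 CPM in the HTR1F neurons (76.2 to 124) and 130.3 in the comparison nuclei (128 to 133), against 41.1 CPM in GAD-high nuclei and 63.1 in astrocyte-like nuclei. A SLC17A7 UMI was seen in 57.3% of the HTR1F neurons, 60.5% of the comparison nuclei, 21.7% of GAD-high nuclei (median depth 6477 UMIs) and 12.2% of astrocyte-like nuclei. After each nucleus was thinned to 3000 UMIs, which left out 1 HTR1F neuron, 390 comparison nuclei, 50 GAD-high and 3410 of 3743 astrocyte-like nuclei, the shares were 29.7, 30.6, 11.4 and 11.7%. The share in the HTR1F neurons thus stood above that in both classes that should lack the gene. It was 30.5% in the 59 nuclei of the main cluster and 26.7% in the 15 others kept. The SLC17A7 level was 90.6 CPM in the 59 and 122 in the 16 others. SLC17A6, the transporter typical of thalamic and hypothalamic glutamatergic neurons, was at 20.2 CPM in the HTR1F neurons, from 14 UMIs, and 5.43 in the comparison nuclei (log2 ratio 1.90, interval 1.01 to 2.66). Both transporters were seen in 9 of the 75 nuclei and neither in 27. SLC17A8 had no UMI in 693151, where the floor of 3 counts used in ratios is 4.33 CPM. The synaptic vesicle gene SV2B and the kinase gene CAMK2A, both typical of excitatory neurons, were at 95.2 and 437 CPM against 169 and 746 in the comparison nuclei. In GAD-high nuclei they were at 28.7 and 271 CPM, and in astrocyte-like nuclei at 35.1 and 216. Of 13 measured genes of the glutamatergic list 2 were called higher and 2 lower, with a median log2 ratio of -0.21, where a call is a difference of at least 2-fold as defined below (4.45% of all genes were called higher and 6.1% lower).

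Some genes of the inhibitory list were at or near 0 in the HTR1F neurons, though several were also scarce in GAD-high nuclei. Both groups were chosen by GAD1 and GAD2, so contrasts between them partly follow from that choice. Other genes of the list were not near 0. ADARB2 and ERBB4 were at 596 and 463 CPM in the HTR1F neurons, 610 and 328 in the comparison nuclei and 5666 and 7491 in GAD-high nuclei. LHX6 was at 1.44 CPM in the HTR1F neurons, from 1 UMI, at 2.07 in the comparison nuclei and at 80.3 in GAD-high nuclei. SLC32A1 was at 1.44 CPM, from 1 UMI, at 2.04 and at 13.2 CPM in the same order, with a UMI in 8.87% of GAD-high nuclei. DLX1, DLX6, LHX8, VIP, PVALB, SP8, SP9 and TAC3 had no UMI. Their levels in GAD-high nuclei were only 0.054 (LHX8) to 5.82 CPM (VIP). For all but VIP these lay below the floor of 4.33 CPM. Of 8 measured genes of the inhibitory list 2 were called higher and 0 lower, beside 4.45% and 6.1% of all genes. The 2 were FOXP2 and MEIS2, transcription factors that glutamatergic neurons are also known to express. TBR1, a factor of pallial glutamatergic neurons, was at 10.1 CPM in the HTR1F neurons and 7.14 in the comparison nuclei.

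For the comparison across genes, a gene counted as measured when one of the groups had 50 or more of its UMIs and when both groups would have had 10 or more of them at the larger of their levels. It was called if its CPM differed at least 2-fold between the HTR1F neurons and the comparison nuclei, in the same direction in each of the 3 barcode sets. In the HTR1F neurons 10 UMIs are 14.4 CPM. A gene below that level in the comparison nuclei was measured only if the HTR1F neurons reached it. A higher call of such a gene partly follows from this limit, and so do the count and median of its list. Such genes included ABCA12, GLP2R, SLC38A11, RASSF3, PTGFRN, JCAD, FOXP2, TSHZ3, SLC17A6, GRIK3, KCNH4, VIPR2, VIPR1, HCRTR2, RSPO2, PDYN and SPAG17. Of 8087 measured genes 360 were called higher (4.45%) and 493 lower (6.1%), so that 10.5% were called in either direction. Against the comparison nuclei without PROX1, 390 of 8051 genes were called higher (4.84%) and 468 lower (5.81%), and 328 higher and 398 lower genes were called in both comparisons. With HTR1F at 3 or more UMIs as the limit, 38 of the 108 genes named by rule came within 2-fold, 8 of the higher and 30 of the lower ones, among them NR3C2 (log2 ratio -0.80), ZBTB20 (-0.78), ZEB2 (-0.71), ZFPM2 (-0.84), ROBO1 (-0.59), DCC (-0.47), CHRM3 (-0.13), HTR4 (-0.92), PDE1A (-0.89), CDH13 (-0.38), PDE10A (0.87) and KCNB2 (0.87). Over all measured genes the median log2 ratio was -0.02, with quartiles at -0.35 and 0.29. Levels are compared between groups of nuclei, not between genes, since counts were not scaled to transcript length.

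KCNH5 was the channel gene with the largest ratio. It was at 636, 702 and 543 CPM in the HTR1F neurons of barcode sets 1, 2 and 3, and at 37.2, 36.2 and 38.4 CPM in the comparison nuclei. The groups did not overlap, and over the pool the levels were 623 and 37.2 CPM, a log2 ratio of 4.07 (3.92 to 4.21). A KCNH5 UMI was seen in 63 of the 75 nuclei, and after thinning in 71.6% against 9.42% of the comparison nuclei, 10.7% of GAD-high and 36.3% of the 333 astrocyte-like nuclei kept. At 804 CPM the 59 nuclei of the main cluster carried the difference, as the 16 others were at 36.7 CPM. With the 59 alone, an alternative added after the data were seen, the log2 ratio was 4.43, and 437 of 7259 measured genes were called higher (6.02%) and 707 lower (9.74%). Astrocyte-like nuclei had KCNH5 at 148 CPM, so the transcript was not confined to the HTR1F neurons.

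ESR1 was at 136, 102 and 78.7 CPM in the HTR1F neurons of the 3 sets and at 26.2, 27.3 and 25.9 CPM in the comparison nuclei, again without overlap. Over the pool it was at 104 and 26.5 CPM, a log2 ratio of 1.97 (1.61 to 2.31), from 72 UMIs. At this depth 40 of the 75 nuclei had an ESR1 UMI, and after thinning 28.4% against 7.53% of the comparison nuclei, 7.61% of GAD-high and 5.11% of the 333 astrocyte-like nuclei kept. ESR1 and KCNH5 were seen together in 37 of the 75 nuclei, KCNH5 without ESR1 in 26, ESR1 without KCNH5 in 3 and neither in 9. With about 1 UMI a nucleus, a nucleus without an ESR1 UMI cannot be told from 1 that does not express it.

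Of the 12 higher genes with the largest ratios, TSHZ2, GPC6 and PTPRT had the most UMIs in the HTR1F neurons (1671, 1615 and 1022). TSHZ2 was at 2171, 2682 and 2372 CPM in the 3 sets of HTR1F neurons and 127, 119 and 128 CPM in the comparison nuclei, a log2 ratio of 4.27 (4.20 to 4.35). PTPRT was at 1623, 1621 and 1219.6 CPM against 45.3, 50.8 and 53.0 CPM, a log2 ratio of 4.89 (4.79 to 4.99). GPC6 was at 2493, 2411 and 2121 CPM against 126, 129 and 139 CPM, a log2 ratio of 4.15 (4.08 to 4.23). In each the lowest set of HTR1F neurons lay far above the highest comparison set. PTPRT and GPC6 were also abundant elsewhere, PTPRT at 666 CPM in GAD-high nuclei without HTR1F and GPC6 at 1216 CPM in astrocyte-like nuclei. TSHZ2 was at 33.8 and 32.3 CPM in those 2 classes.

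VWC2L, a secreted protein with von Willebrand C domains, was at 580.0 and 40.0 CPM in the HTR1F neurons and the comparison nuclei (log2 ratio 3.86). The transcription factor FOXP2 was at 170.2 and 11.6 CPM (3.87). SLC38A11, a member of an amino acid transporter family, was at 108 and 3.90 CPM (4.79), and RASSF3, a Ras-association domain protein, at 93.8 and 3.88 (4.60). Rarer transcripts with large ratios rested on 20 to 34 UMIs in the HTR1F neurons. They were the lipid transporter ABCA12 (log2 ratio 5.01, interval 4.42 to 5.56), the glucagon-like peptide receptor GLP2R (4.87, 4.09 to 5.59), the membrane protein PTGFRN (4.01, 3.35 to 4.61) and the junction-associated protein JCAD (3.83, 3.14 to 4.45). Thinning moved ABCA12 to 3.95. Leaving out 1 barcode set moved 0 of the 12 genes with the largest ratios by over 1.5 times. The 8 genes whose counts were most like those of HTR1F over the 11556 nuclei were PTPRT and TSHZ2 (Pearson's r 0.21 for both), SLC38A11 (0.19), KCNH5 (0.18), VWC2L (0.17), RASSF3, FOXP2 and GPC6 (0.15 for all 3). These weak values use the HTR1F counts by which the nuclei were chosen, so they restate the rule.

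**Figure D3:**
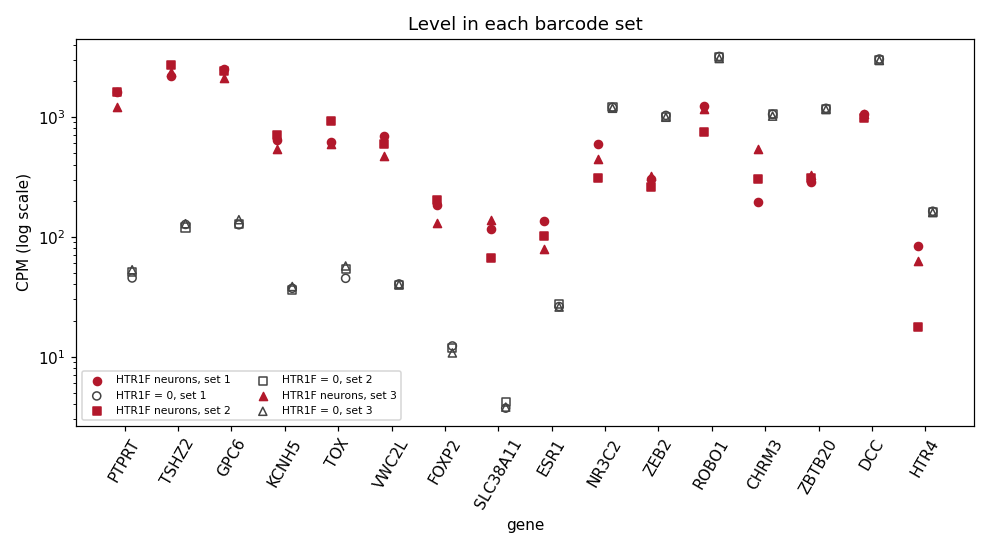
CPM (vertical axis, log scale) of 16 genes in each of the 3 barcode sets; filled red symbols are the HTR1F neurons, open symbols the comparison nuclei without HTR1F, and circles, squares and triangles are sets 1, 2 and 3. From PTPRT to ESR1 every red symbol lies above the open symbols, and from NR3C2 to HTR4 every red symbol lies below them.

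Transcription factors of cortical layers and of the telencephalon were called in both directions. Of 19 measured genes of the cortical layer list 8 were called higher and 4 lower, beside 4.45% and 6.1% of all genes. The median log2 ratio was 0.36 over the list beside -0.02 over all genes. Against the comparison nuclei without PROX1 the counts were 7 and 5 and the median was 0.08. Higher genes included TOX, an HMG-box factor, at 704 against 51.9 CPM (log2 ratio 3.76), the layer factor CUX2 at 117 against 15.6 (2.90), and the gene PCP4, a calmodulin regulator of deep-layer neurons, at 89.4 against 24.5 (1.87). Lower genes included BCL11B, a factor of subcerebral projection neurons, with a log2 ratio of -1.41, and ETV1, a deep-layer factor, at 24.5 against 103 (-2.08). BCL11B was at 13.2 CPM in the main cluster, 275 in the 16 nuclei outside it and 199.9 in the comparison nuclei, and ETV1 was at 7.55 CPM in the main cluster and 79.6 in the 16.

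Among 24 measured amygdala and telencephalic factors 6 were called higher and 7 lower (list median -0.31), beside 4.45% and 6.1% of all genes. All 3 teashirt genes were higher: beside TSHZ2, TSHZ3 was at 126 against 12.7 CPM (3.30, and 3.97 against the nuclei without PROX1) and TSHZ1 at 111 against 18.1 (2.62). PBX3, a homeodomain cofactor, was at 64.9 against 20.1 CPM (1.69). ZEB2, a zinc-finger repressor, was at 304, 258 and 323 CPM in the 3 sets of HTR1F neurons and 1028, 996 and 992 CPM in the comparison nuclei, a log2 ratio of -1.77 (-1.97 to -1.57). ZFPM2, a GATA cofactor, was at 327 against 1056 CPM (-1.69). ZFPM2 was at 83.1 CPM in the main cluster and 1120.1 in the 16 nuclei outside it. ZEB2 was at 52.9 CPM in the main cluster and 1083 in the 16 others, close to the 1006 CPM of the comparison nuclei.

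Of 21 measured genes of hippocampal fields 2 were called higher and 8 lower, beside 4.45% and 6.1% of all genes. The list median was -0.59 (-0.66 against the nuclei without PROX1). ZBTB20 was at 285, 311 and 327 CPM in the 3 sets of HTR1F neurons and 1178, 1161 and 1149.6 CPM in the comparison nuclei, a log2 ratio of -1.91 (-2.11 to -1.72). SEMA5A, a guidance semaphorin, had a log2 ratio of -2.63, which was -1.54 against the nuclei without PROX1 and -3.33 without barcode set 3. The higher genes were ST8SIA2, a polysialyltransferase, at 195 against 57.7 CPM (1.75), and the metabotropic glutamate receptor GRM3 at 378 against 127 (1.58).

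No other measured serotonin receptor was called higher beside HTR1F. Of 11 that have a row in the data, 4 were measured, with a median log2 ratio of -1.30. Of these 4, 0 were called higher and 3 lower, beside 4.45% and 6.1% of all genes. HTR4, which couples to stimulatory G proteins, was at 84.2, 17.8 and 62.9 CPM in the 3 sets of HTR1F neurons and 163, 159.7 and 159 CPM in the comparison nuclei, a log2 ratio of -1.55 (-2.05 to -1.09). It was at 5.66 CPM in the main cluster and 214 in the 16 nuclei outside it. HTR1E, the closest relative of HTR1F, was at 57.7 and 119 CPM (-1.05), a ratio that came within 2-fold without barcode set 3 (-0.81) and after thinning (-0.63), and it was at 30.2 CPM in the main cluster and 147 in the 16 others. HTR2C had 3 UMIs in the HTR1F neurons, a log2 ratio of -2.19 with an interval of -4.47 to -0.64, which was -3.32 without barcode set 1 and -1.47 without set 3. HTR2A was at 33.2 and 24.5 CPM (0.44, interval -0.22 to 1.03) and was not called. HTR1A, HTR1B and HTR5A had no UMI in the HTR1F neurons.

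Of 26 measured partners of inhibitory G protein signalling 2 were called higher and 3 lower (list median 0.25), beside 4.45% and 6.1% of all genes. RGS6, a regulator that ends G protein signals, was at 457 against 90.0 CPM (2.35), and the phosphodiesterase PDE10A, which breaks down cyclic nucleotides, at 359 against 146 (1.30). The phosphodiesterases PDE1A and PDE7B were at 374 and 77.9 CPM against 1174 and 293 (-1.65 and -1.91). PDE1A was at 157 CPM in the main cluster and 1077 in the 16 nuclei outside it. The other lower gene was RGS8 with 4 UMIs.

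Among steroid and other nuclear receptors, ESR1 was the 1 gene of 11 measured that was called higher, and NR3C2 the 1 called lower (list median 0.12). Over all measured genes 4.45% were called higher and 6.1% lower. NR3C2 was at 599, 306 and 445 CPM in the HTR1F neurons of the 3 sets and 1201, 1207 and 1179 CPM in the comparison nuclei, a log2 ratio of -1.42 (-1.58 to -1.26). The glucocorticoid receptor NR3C1 was at 72.1 and 64.2 CPM (0.17, -0.26 to 0.57) and was not called. ESR2, encoding estrogen receptor beta, had 8 UMIs and was not measured, nor was the progesterone receptor PGR (1 UMI). Of 8 measured cofactors and targets of the estrogen receptor 0 were called in either direction (list median 0.09). FKBP5, a co-chaperone of steroid receptors that glucocorticoids are known to induce, had 6 UMIs and was at 8.66 against 79.9 CPM, a log2 ratio of -3.21 (-4.65 to -2.08), which was -4.20 without barcode set 2 and -2.58 without set 3.

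Voltage-gated potassium channels were called in both directions. Of 21 measured genes 4 were called higher and 1 lower (list median 0.18), beside 4.45% and 6.1% of all genes. Against the comparison nuclei without PROX1 the counts were 4 and 2. The higher ones were KCNH5, its relatives KCNH7 at 146 against 41.1 CPM (1.82) and KCNH4 at 40.4 against 8.79 (2.20, and 1.29 after thinning), and the delayed rectifier KCNB2 at 1444 against 633 (1.19). KCNH4 was measured only through its level in the HTR1F neurons. The nearest paralog of KCNH5, KCNH1, was at 1023 and 584 CPM (0.81) and stayed within 2-fold. Among 17 measured sodium, calcium and HCN channels 2 were called higher and 0 lower (list median 0.04), namely SCN9A (1.53) and SCN3A (1.19, and 0.96 after thinning).

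Of 22 measured glutamate receptor genes 4 were called higher and 1 lower (list median -0.06), beside 4.45% and 6.1% of all genes. GRM4, a presynaptic metabotropic receptor that also couples to inhibitory G proteins, was at 108, 138 and 110.2 CPM in the 3 sets of HTR1F neurons and 15.4 CPM in the comparison nuclei, a log2 ratio of 2.95 (2.61 to 3.27). The kainate receptor subunit GRIK3 was at 33.2 against 7.49 CPM (2.15). Of 13 measured GABA receptor genes 3 were called higher and 1 lower (list median 0.13). The alpha subunit GABRA5 was at 44.7 against 146 CPM (-1.71), with 24.5 CPM in the main cluster and 110.2 in the 16 others. The beta subunit GABRB2 was at 567 against 203 CPM (1.48).

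Receptors for other modulators were called in both directions. Of 6 measured receptors for dopamine, noradrenaline, acetylcholine and histamine 1 was called higher and 1 lower (list median -0.40). The histamine receptor HRH2, which couples to stimulatory G proteins, was at 131, 115 and 102 CPM in the 3 sets of HTR1F neurons and 26.9, 28.1 and 31.5 CPM in the comparison nuclei (2.01). The muscarinic receptor CHRM3 was at 196, 302 and 543 CPM against 1050.3, 1049 and 1014 CPM (-1.54), and at 90.6 CPM in the main cluster against 1224 in the 16 others. Of 13 measured peptide and cannabinoid receptors 5 were called higher and 3 lower (list median 0.29), 8 of 13 beside 10.5% of all genes. Of the higher ones GLP2R, VIPR2, VIPR1 and HCRTR2 were at 0.984, 4.52, 6.63 and 6.29 CPM in the comparison nuclei. They were measured only through their level in the HTR1F neurons, so the excess over 10.5% was partly set by the limit for measured genes. The receptors for vasoactive intestinal peptide, VIPR2 and VIPR1, were at 51.9 and 27.4 CPM against 4.52 and 6.63 (3.52 and 2.05, and 2.75 for VIPR2 after thinning). CRHR1, the receptor of corticotropin-releasing hormone, was at 47.6 against 22.1 CPM (1.11). The neuropeptide Y receptor NPY1R was called lower (-1.56) but was within 2-fold of the nuclei without PROX1 (-0.82).

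Of 15 measured neuropeptides and secreted factors 4 were called higher and 1 lower (list median 0.42), beside 4.45% and 6.1% of all genes. RSPO2, a secreted enhancer of Wnt signalling, was at 88.9, 119.9 and 102 CPM in the 3 sets of HTR1F neurons and 11.1 CPM in the comparison nuclei (3.23, 2.86 to 3.57). The opioid precursor PDYN was at 31.7 against 8.52 CPM (1.90), and the growth factor NRG1, the ligand of ERBB4, at 1953 against 631 (1.63). RSPO2 and PDYN were measured only through their level in the HTR1F neurons, so the list's count and median were partly set by that limit.

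Genes of wiring and adhesion were also called in both directions. Of 32 measured axon guidance genes 6 were called higher and 8 lower (list median -0.22), beside 4.45% and 6.1% of all genes. The netrin receptor DCC was at 1053, 972 and 1054 CPM in the 3 sets of HTR1F neurons and 3036, 2978 and 2950.2 CPM in the comparison nuclei (-1.54, -1.65 to -1.43). The Slit receptor ROBO1 was at 1230.4, 741 and 1153 CPM against 3189.7, 3170.2 and 3065 CPM (-1.59, -1.70 to -1.49). The ephrin receptors EPHA3 and EPHB1 were at 423 and 512 CPM against 78.7 and 97.2 (2.43 and 2.40), and their ligand family member EFNA5 at 505 against 128 (1.98). In the main cluster DCC and ROBO1 were at 451 and 257 CPM, against 2895 and 3593 in the 16 nuclei outside it.

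Of 41 measured synaptic adhesion genes 3 were called higher and 4 lower (list median -0.17), beside 4.45% and 6.1% of all genes. The higher ones were PTPRT, the latrophilin ADGRL2 (211 against 27.6 CPM, 2.93) and ASTN2, a trafficking protein of migrating neurons (941 against 150.3, 2.65). Of 22 measured cadherins and protocadherins 4 were called higher and 5 lower (list median 0.21). CDH20 was at 417 against 115 CPM (1.86) and PCDH10 at 89.4 against 17.7 (2.34), whereas CDH13 was at 50.5 against 188 (-1.90), with 46% of its UMIs in 1 nucleus and a level of 11.3 CPM in the main cluster and 178 in the 16 others. Of 5 measured immediate early genes, which neuronal activity induces, 0 were called in either direction, with a list median of 0.26. Of 18 measured synaptic vesicle and pan-neuronal genes 2 were called higher and 2 lower, with a list median of 0.15.

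**Figure D4:**
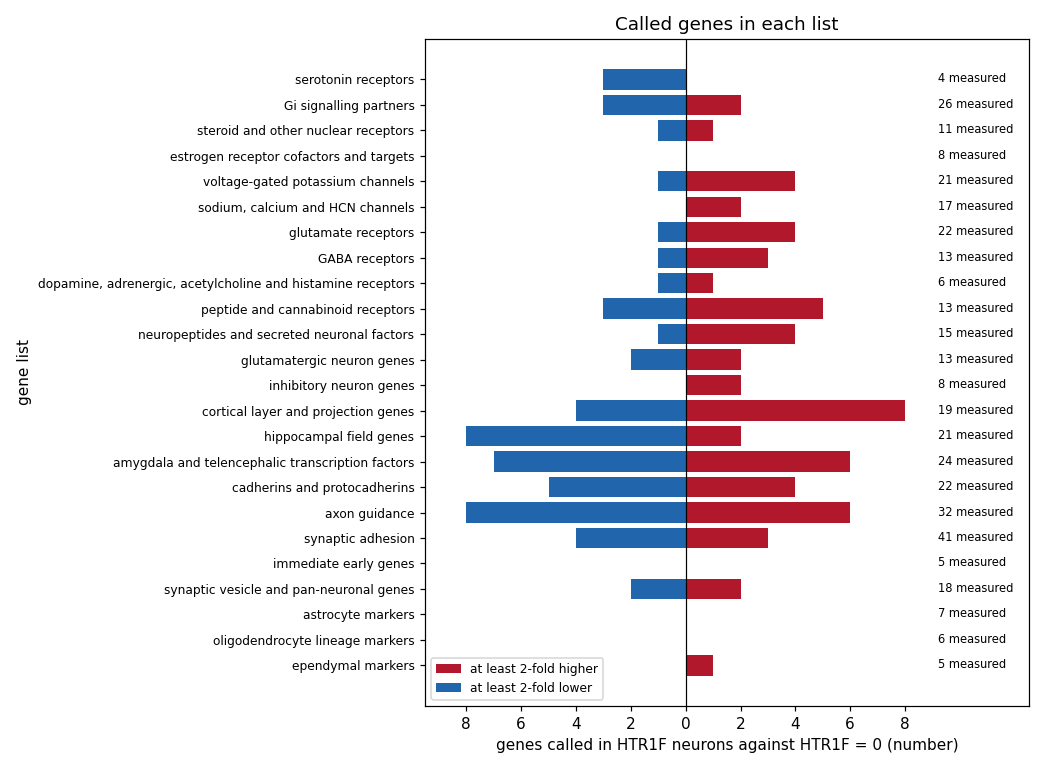
Number of genes (horizontal axis) called at least 2-fold higher (red, to the right) or lower (blue, to the left) in the HTR1F neurons against the comparison nuclei without HTR1F, in the 24 gene lists (vertical axis) with at least 4 measured genes; the number measured stands at the right. The cortical layer list has 8 higher and 4 lower of 19, the hippocampal field list 2 higher and 8 lower of 21, and the serotonin receptors 0 higher and 3 lower of 4. Over all measured genes 4.45% were called higher and 6.1% lower.

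The 12 lower genes with the largest ratios rested on 1 to 6 UMIs in the HTR1F neurons, and leaving out 1 barcode set moved 10 of them by over 1.5 times. AFAP1L1, an actin filament protein, had 1 UMI (log2 ratio -4.20, interval -9.51 to -1.72), and was at -1.98 without barcode set 3. C1QL2, a secreted synaptic organizer known from hippocampal granule cells, had 1 UMI (-4.08, -9.38 to -1.60), and was at -2.01 without set 2 and -0.87 after thinning. The others were OSCAR, IL7, LONRF3, MPP7, EVC, FKBP5, ANXA4, NFKBIZ, HAP1 and RAB39A, with ratios from -3.52 for OSCAR to -2.86 for RAB39A. Without 1 set these reached from -1.29 for IL7 without set 1 to -4.31 for MPP7 without set 1. After thinning OSCAR was at -1.08 and ANXA4 at -0.70, and with HTR1F at 3 or more UMIs they were at -0.99 and -0.55.

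Most measured markers of other cell types were not called in the HTR1F neurons, though the levels of some lists differed. Of 7 measured astrocyte markers 0 were called (list median -0.47). Their list's summed level was 1754 to 2119 CPM over the 3 sets, below the 2935 to 2992 CPM in the comparison nuclei. Of 6 measured oligodendrocyte lineage markers 0 were called, at 781 to 1085 against 893 to 900 CPM, with MOG, CNP, CSPG4 and OLIG1 at 0. Of 8 microglia markers 1 was measured and not called, at 17.8 to 47.2 against 48.4 to 54.0 CPM, with C3, CX3CR1 and CD74 at 0. Vascular markers summed to 17.8 to 55.1 against 38.4 to 41.2 CPM, with CLDN5, NOTCH3 and DCN at 0 and none measured. Of 5 measured ependymal markers 1, SPAG17, was called higher (39.0 against 10.7 CPM), with FOXJ1 at 0 and a summed level of 319 to 337 against 479 to 487 CPM. Of 2 measured Cajal-Retzius markers 0 were called, but their median log2 ratio was 1.10. The summed level of that list was 17.8 to 164 against 52.5 to 56.8 CPM. The inhibitory list summed to 1252 to 2160 CPM over the sets against 1342 to 1363 CPM.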

How the data were processed

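Nuclei of frozen macaque amygdala were profiled with 10x Genomics Chromium 3′ chemistry, per the labels' protocols. The deposited values are raw UMI counts in 19708 gene rows and 26400 nuclei (151526883 UMIs). Per the submitters' processing notes, the authors ran fastp and Cell Ranger 3.0.0 with GRCh38. Since macaque Ensembl identifiers name 5142 rows, the build is unsettled, and coordinates are not printed. A RefSeq-based gene table gave symbols to 796 of those rows. Only 3′ ends of nuclear RNA are read, and gene rows were taken as counted, so transcripts of overlapping or near-identical genes could not be told apart.

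For each group of nuclei the counts of a gene were added up and expressed as CPM. A count of 0 entered a ratio as 3 counts over the group. Intervals are 95% exact Poisson or Clopper-Pearson. Clustering used 2000 variable genes of counts scaled to 10000, 30 components, 15 neighbours and Leiden resolution 0.5 in Python 3.11.15 with scanpy 1.11.5 and igraph 0.11.9. Scrublet scores gave presumed doublets at 0.8% per 1000 nuclei in each set, kept unless stated. The comparison was also run on simulated Poisson counts at the levels of the comparison nuclei, with known changes in some genes. These counts hold no variation among nuclei, so the run cannot show how such variation affects the calls. Named genes are the 12 largest and 12 smallest ratios called in both comparisons, KCNH5, ESR1, the 8 genes most like HTR1F, and up to 4 called genes a list and direction; other genes named, such as PCP4, CRHR1, those that check the label and those not called, were chosen after their values were seen. Some genes of the lists are not reported here by name. The members, the 27 gene lists and the rule were chosen with earlier results of these data known. Alternatives were other thresholds, comparison nuclei, depth, doublets, weighting and each barcode set left out.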

Additional observations from a re-analysis of the deposited data

How the results depend on the processing

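The counts of called genes, 360 higher and 493 lower, were within 1.5 times of their values in most settings, and those outside were 105 higher and 80 lower at 4-fold, and 287 lower with HTR1F at 3 or more UMIs, 328 lower after thinning to 3000 UMIs and 1000 lower with a minimum of 1 UMI. The KCNH5 log2 ratio of 4.07 was 4.30 with HTR1F at 10 or more UMIs, 3.42 at 3 or more, 4.25 without presumed doublets and 4.43 with the main cluster alone, an alternative chosen after seeing the data. ESR1 was at 1.51 with HTR1F at 3 or more UMIs. The share of nuclei that meet the rule was 0.473% at 3 or more UMIs, 0.170% at 10 or more and 0.101% when nuclei were thinned first, a rule that fewer nuclei can meet. For the other moved values the cause was not tested. Without 1 barcode set the counts were 355 to 381 higher and 419 to 458 lower, KCNH5 3.95 to 4.19 and ESR1 1.75 to 2.15. Of 1166 values of single named genes over the alternatives, 0 reversed direction. This was largely fixed by the choice of genes, which had to differ 2-fold in the same direction in each barcode set. Many alternatives also reuse the same nuclei. Of the 108 named genes 38 came within 2-fold with HTR1F at 3 or more UMIs, 11 after thinning, 6 against nuclei without PROX1, 3 to 8 without 1 barcode set and 0 to 5 in the other settings. No paired analysis was possible because all samples form 1 group and no result comes from a test. Genes with few UMIs, such as the largest lower ones, are limited by depth.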

Other observations

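HTR1F at 5 or more UMIs was also found in 40 of 2950 nuclei with RBFOX3 and more than 1 UMI of GAD1 and GAD2 (1.36%, 0.970 to 1.84%). Within the RBFOX3, GAD and PROX1 limits of the rule the share was 0.985% (0.775 to 1.23%). It was 0.178% where only the PROX1 limit was not met. High HTR1F was thus not confined to nuclei low in GAD1 and GAD2. The 40 nuclei were compared with the 2627 nuclei of the same RBFOX3 and GAD counts without HTR1F. KCNH5 was at 39.4 and 45.0 CPM in them, TSHZ2 at 47.8 and 33.8, FOXP2 at 5.62 and 6.85 and ESR1 at 30.9 and 26.2. PTPRT was at 278 CPM in the 40 nuclei and 666 in the 2627. The genes that led in the HTR1F excitatory neurons were thus not at similarly high levels in these nuclei, which are compared as a description.

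The gene row with the largest ratio of all had no symbol, ENSMMUG00000038625, and was chosen after its values were seen. It was at 698 CPM in the HTR1F neurons (interval 637 to 763) and 9.15 in the comparison nuclei, a log2 ratio of 6.25, with a UMI in 57 of the 75 nuclei.

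Most neighbours of called genes, in the gene order of the T2T-MMU8v2.0 assembly, were not called in the same direction, and the share that were is given beside that of all placed genes, with no test of the difference. Of 7558 genes placed there 4.27% were called higher, and of 645 neighbours of such genes 66 were (10.2%). For lower genes 118 of 911 neighbours were called lower (13.0%) beside 6.03% of placed genes. The pairs with the largest ratios were VWC2L and ABCA12, GRB14 and SLC38A11, PTGFRN and IGSF3, and COL4A4 and COL4A3. Whether reads of a gene were counted for its neighbour was not tested.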
